A study of Mus musculus with 8 samples.

Results

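The response of a collecting duct cell line to aldosterone for 1 h was described on the 4 arrays that compared treated with vehicle cells at that time, out of 8 arrays in the series. The arrays were chosen by their label for the length of treatment, without use of any measured value. The tested cells received aldosterone at 1 µM for 1 h, and each array set them against cells given the ethanol vehicle for the same time. The other 4 arrays made the same comparison after 6 h. All cells, treated or not, were mpkCCDc14 cells grown on collagen-coated porous supports and moved into serum stripped of steroids and free of dexamethasone before treatment. mpkCCDc14 is an established immortalized line from mouse kidney cortical collecting duct, so its cells stand for a single source and not for a range of animals. Treated cDNA carried Cy5 and vehicle cDNA Cy3 on all 8 arrays, with no exchange of the dyes. A log2 ratio above 0 therefore means more Cy5 signal from aldosterone-treated cells, and a dye preference of a probe cannot be told apart from a response to the hormone in any test against 0.

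Aldosterone is the adrenal hormone that makes the collecting duct reabsorb sodium. It binds the mineralocorticoid receptor, and at high concentration the glucocorticoid receptor as well, and both act in the nucleus as transcription factors on the same kind of DNA element. Early targets known in this segment include the kinase Sgk1, which keeps the epithelial sodium channel at the membrane, the leucine zipper protein gene Tsc22d3, the channel subunit Scnn1a and subunits of the sodium pump.

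The files held ratios without signal intensities, so no transcript level is given here, and the identity of the cells could not be checked by marker levels. In RNA from a whole culture, fewer cells of a type and less RNA per cell cannot be told apart. The labels name no separate cultures, so a p-value here measures only how far the arrays spread, which may be technical, and having 4 of them limits the precision. Replicates were numbered in accession order, and the numbers pair nothing. Replicate 4 stood apart by its spread: the SD of its log2 ratios over the 15078 features tested (12535 named genes and 2543 unnamed probes) was 0.576, against 0.340 to 0.348 on replicates 1 to 3. It had 2078 features at least 1.5-fold above vehicle and 2273 at least 1.5-fold below, against 306 to 362 above and 665 to 799 below on the others. Errors are standard errors from limma over all 8 arrays, n = 4 arrays per time, and each adjusted p is limma's after Benjamini-Hochberg adjustment over all features.

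Many features departed from a ratio of 1 at 1 h, most of them slightly. With an adjusted p under 0.05, 6180 features (41%) differed from vehicle, 3010 above it (20%) and 3170 below it (21%). The median size of a called difference was 0.41 on the log2 scale, or 1.32-fold, and 80.7% of the called features had a mean under 1.5-fold. The 4 arrays fitted alone called 2249 above and 2644 below. With so large a share called, the call by itself says little about a gene, so early movers were defined as features called at 1 h that also lay at least 1.5-fold from vehicle, on the same side, on each of the 4 arrays. There were 196 of them, 21 above vehicle (0.139% of features) and 175 below (1.16%). All 196 also passed with the 4 arrays fitted alone, which is no separate support, since the fold rule used the same 4 arrays. The number moved with the arrays and their scaling. With an array left out there were 209 to 332, of which 27 to 58 were above vehicle, since fewer arrays must then pass the fold threshold, and the highest number came without replicate 1. Scaling the arrays to equal median absolute deviation gave 138, 19 above vehicle and 119 below. The threshold lies at 0.585 on the log2 scale, and the array nearest to 0 stood at 0.59 for the feature just inside and at 0.58 for the one just outside.

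The 21 early movers above vehicle were moderate in size, with mean log2 ratios from 0.71 to 1.74 and a median of 0.86, and none was 2-fold or more on every array. They comprised 17 named genes and 4 unnamed probes. Fkbp1a, which encodes the small immunophilin that binds FK506, had log2 ratios of 0.73, 0.65, 0.75 and 0.72 on replicates 1 to 4. These arrays nearly coincided, and the mean of 0.71 ± 0.06 corresponds to 1.64-fold (limma adjusted p = 0.000583). Slc25a3, the carrier that brings phosphate into mitochondria, had 0.79, 0.64, 0.82 and 0.85, with a mean of 0.78 ± 0.07 or 1.71-fold (adjusted p = 0.000561). Pacsin2, a membrane-bending protein of endocytosis, had 0.84, 0.69, 0.84 and 1.08, with a mean of 0.86 ± 0.08 (adjusted p = 0.000583). No array of these 3 genes came near vehicle, which the rule for movers requires. Abcg5, a sterol half-transporter, had 0.93, 1.13, 1.22 and 1.59, a mean of 1.22 ± 0.14 or 2.33-fold (adjusted p = 0.001). Zxdc, a zinc finger gene, had 0.78, 0.68, 0.67 and 0.94 (adjusted p = 0.00134), and S100pbp, whose protein binds the calcium-binding protein S100P, had 1.0, 0.84, 0.69 and 0.82 (adjusted p = 0.00584). The uncharacterized gene 4930519L02Rik stood at 0.85, 0.68, 0.97 and 0.93 (adjusted p = 0.000914). That the arrays of all these genes lay on one side follows from the rule for movers. Their scatter differed, and it was widest for Abcg5, from 0.93 to 1.59.

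For other early movers above vehicle replicate 4 lay farther out than replicates 1 to 3 and raised the mean. Capns1, the small regulatory subunit of calpain, had 0.67, 0.66 and 0.67 on replicates 1 to 3 and 1.44 on replicate 4. Pfdn5, a subunit of the prefoldin chaperone, had 0.78, 0.77, 0.81 and 1.79. The same array was the farthest from vehicle for Snurf, an imprinted gene, with 0.93, 0.69, 0.65 and 1.53. For 2700046G09Rik the ratios were 1.03, 0.80, 1.15 and 2.79, and for 4833417C18Rik they were 1.2, 1.16, 0.83 and 3.75. Without replicate 4 the mean of 4833417C18Rik was 1.06 in place of 1.74, and it still passed (adjusted p = 0.0154). Over the 21 movers the median ratio was 0.79, 0.68 and 0.75 on replicates 1 to 3 and 1.44 on replicate 4.

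The 175 early movers below vehicle were more numerous and reached farther. Their mean log2 ratios ran from -3.66 to -0.65 with a median of -0.965, and 24 of them were at least 2-fold below vehicle on every array. Named genes made up 142 of them and unnamed probes 33. Tom1l1, an adaptor protein of endosomal sorting, had log2 ratios of -3.71, -3.58, -3.08 and -4.28 on replicates 1 to 4, so the treated signal averaged 0.079 times that of vehicle (mean -3.66 ± 0.30, adjusted p = 0.000561). All 4 arrays lay far below vehicle. Ptgdr2, a receptor for prostaglandin D2, had -2.03, -4.34, -3.93 and -2.29 (mean -3.15 ± 0.36, adjusted p = 0.00092), and the arrays scattered widely while staying on one side. Gna13, a G protein alpha subunit, had -2.91, -2.51, -1.29 and -3.38 (mean -2.52 ± 0.34, adjusted p = 0.00136).

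Several of the strongest ratios below vehicle belonged to genes best known from other tissues. Fgb, the fibrinogen beta chain made in liver, had -2.28, -3.0, -2.91 and -3.67. Col9a1, a collagen chain of cartilage, had -2.36, -3.09, -2.48 and -2.21. Cpa1, a carboxypeptidase of pancreas, had -2.26, -2.03, -1.74 and -2.51 and the smallest of these adjusted p-values, 0.000103, at a mean of -2.14 ± 0.12. No array of these 3 genes was nearer to vehicle than -1.74. Cngb1, a subunit of the rod photoreceptor channel, had -1.75, -1.26, -1.46 and -2.28 (adjusted p = 0.000883), and Mucl2, a mucin-like gene, had -1.53, -1.48, -1.59 and -3.04 (adjusted p = 0.0012). Of the 142 named movers below vehicle, 8 (5.63%) belonged to the lists of genes of other tissues described further on, which hold 138 of the 12535 named genes tested (1.1%). No named mover above vehicle did. Whether such probes read a transcript of these cells was not tested, since signal over background is unknown.

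The remaining genes named among the movers below vehicle act at membranes or in signalling. Prom2, a prominin of membrane protrusions, had -1.52, -2.03, -1.76 and -2.23 (adjusted p = 0.000377). Abhd3, a lipase-like hydrolase, had -1.41, -2.08, -1.97 and -1.60 (adjusted p = 0.00065), and Apcdd1, an inhibitor of Wnt signalling, had -1.39, -1.50, -1.32 and -2.07 (adjusted p = 0.000801). Kcnip4, which binds voltage-gated potassium channels, had -1.55, -1.25, -1.21 and -2.16 (adjusted p = 0.000801). Like the others named above, these genes kept their call without each of the 4 arrays in turn. They were named because even the array nearest to 0 lay far out, so this is no separate support. Over the 175 movers the median ratio was -0.89, -0.82, -0.85 and -1.2 on replicates 1 to 4, so that replicate 4 again lay farthest out.

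**Figure D1:**
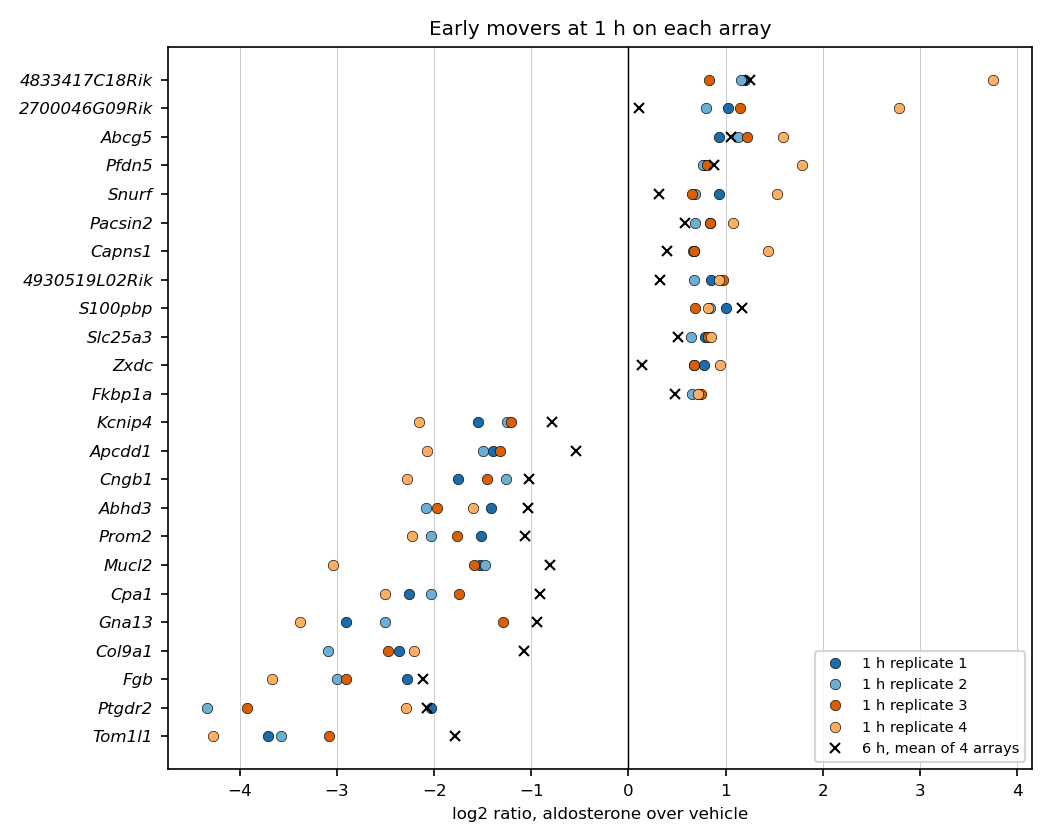
Log2 ratio of aldosterone over vehicle (x axis) of the 24 named early movers (y axis), with 1 filled circle for each of the 4 arrays at 1 h and a cross for the mean of the 4 arrays at 6 h. Every 1 h circle of a gene lies on one side of 0, as the rule for movers requires. The circle of replicate 4 is the outlying one for Capns1, Pfdn5 and 4833417C18Rik, and most crosses lie nearer to 0 than the circles.

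Among the known corticosteroid targets replicates 1 and 2 differed from replicates 3 and 4. Of 38 listed genes 32 were measured, and the calls were 6 above vehicle and 6 below it, with 20 not passing. That is 18.8% each way, close to the 20% and 21% of all features, and the median ratio was 0.10 against 0.00 over all features. That median was 0.07 and 0.04 without replicate 1 or 2, and 0.16 without replicate 3 or 4. The list median was 0.28 and 0.24 on replicates 1 and 2, against -0.10 and -0.01 on replicates 3 and 4. Higher ratios in replicates 1 and 2 than in 3 and 4 were found for 26 of the 32 genes (81.2%), against 46.9% of all features. Both arrays of replicates 1 and 2 were above 0 for 20 of the 32, against 38.0% of all features. Both of replicates 3 and 4 were above 0 for 7 of the 32, against 39.4% of all features. None of the 32 was an early mover.

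Sgk1, the kinase that keeps the sodium channel at the membrane, had log2 ratios of 1.65 and 1.38 on replicates 1 and 2 and of -0.64 and -0.16 on replicates 3 and 4. Tsc22d3, the gene of the leucine zipper protein GILZ, had 1.01 and 0.88 against -0.60 and -0.15. Ccn2, a matrix growth factor known as connective tissue growth factor, had 1.35 and 1.26 against -0.57 and 0.01. These genes were more than 1.5-fold above vehicle on replicates 1 and 2 and at or below vehicle on the other arrays. Usp2, a ubiquitin protease, had 0.46 and 0.92 on the first pair and -0.01 and 0.06 on the second. The means of the 4 genes did not pass (adjusted p from 0.0832 for Usp2 to 0.344 for Tsc22d3). At 6 h all 4 arrays were above vehicle for each of these genes, from 1.46 to 2.65 for Sgk1 and from 1.15 to 1.59 for Tsc22d3. The 1 h minus 6 h difference was -1.35 ± 0.50 for Sgk1 (adjusted p = 0.256) and -0.98 ± 0.33 for Tsc22d3 (adjusted p = 0.233), and neither passed.

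The bases before the gene starts of Sgk1 and Tsc22d3 are shown because these known targets split the arrays in the same way. Each gene has several starts, and the windows shown were picked for the sites they hold. Each sequence is the 250 bases before a RefSeq gene start in build GRCm38.p6, 5′ to 3′ on the gene's strand, from chr10:21993640-21993889 (plus strand) for Sgk1 and chrX:140600523-140600772 (minus strand) for Tsc22d3. Capitals mark the hexamers AGAACA and TGTTCT, the arms of the element that corticosteroid receptors bind, which are reverse complements of each other, so that a search on both strands finds the same sites.

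Sgk1: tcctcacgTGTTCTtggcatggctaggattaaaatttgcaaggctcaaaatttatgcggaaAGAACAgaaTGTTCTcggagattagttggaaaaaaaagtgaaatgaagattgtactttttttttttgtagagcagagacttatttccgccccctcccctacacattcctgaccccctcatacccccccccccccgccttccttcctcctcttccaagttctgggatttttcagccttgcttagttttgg

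Tsc22d3: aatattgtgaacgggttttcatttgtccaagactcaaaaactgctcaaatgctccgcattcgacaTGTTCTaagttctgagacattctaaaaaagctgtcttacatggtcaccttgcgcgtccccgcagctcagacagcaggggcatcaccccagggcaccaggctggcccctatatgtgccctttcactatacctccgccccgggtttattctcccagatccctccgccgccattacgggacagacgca

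The Sgk1 window held hexamers starting at -242, -189 and -180 from the gene start, and the last 2 lie 3 bases apart, AGAACA followed by TGTTCT. The Tsc22d3 window held 1 hexamer, at -185. RefSeq gives several starts for each gene, and 3 of 6 windows of Sgk1 and 1 of 3 of Tsc22d3 held a hexamer. Atp1b1 and Fkbp5 had 1 window each, without one. Of 32851 such windows over mouse genes, 16.1% held AGAACA or TGTTCT, so a single hexamer is common. The pair with that order and spacing occurred in 3 windows (0.00913%). That is a share per window, while the Sgk1 window was picked for the pair from 6 windows of the gene. It was searched after the Sgk1 window had been read, and a match of letters is a description and no evidence of binding in these cells.

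Some corticosteroid targets were above vehicle on every array at 1 h. Atp1b1, a beta subunit of the pump that drives sodium out of the cell, had 0.90, 0.73, 0.58 and 1.13, a mean 1.78-fold above vehicle (0.84 ± 0.09, adjusted p = 0.000914), with replicate 3 just short of the 1.5-fold threshold. Fkbp5, an immunophilin that restrains steroid receptors, had 0.76, 0.69, 0.03 and 0.63 (mean 0.53 ± 0.11, adjusted p = 0.00562), and replicate 3 alone lay near vehicle. Scnn1a, which encodes the pore-forming alpha chain of the channel ENaC, had 0.59, 0.43, 0.12 and 0.55 (mean 0.42 ± 0.11, adjusted p = 0.0124), a call lost without replicate 1 (0.0503). Replicate 3 was the lowest of the 4 for each of these genes. Mt2, a metallothionein, had 0.60, 0.27, 0.51 and 1.54 (mean 0.73, adjusted p = 0.00827), and its mean was 0.46 without replicate 4. Cdkn1a, a cyclin kinase inhibitor, had 0.35, 0.35, 0.01 and 0.38 (adjusted p = 0.0194), and Cebpb, a transcription factor, had 0.28, 0.35, 0.14 and 0.15 (adjusted p = 0.0386). The call of Cdkn1a was lost without replicate 1 (0.068), 2 (0.0666) or 4 (0.0613) and that of Cebpb whichever array was left out (0.0535 to 0.133).

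Another 6 targets were below vehicle, although most of them are known as genes that corticosteroids raise. Gadd45b, a growth arrest gene, had -0.38, -0.36, -0.49 and -0.44 (mean -0.42 ± 0.07, adjusted p = 0.00224), with all arrays close together. Cebpd, the C/EBP delta gene, had -0.40, -0.46, -0.58 and -0.81 (adjusted p = 0.00172), and the hypoxia-inducible factor gene Hif3a had -0.38, -0.45, -0.26 and -0.16 (adjusted p = 0.00967). The 2 probes of Hif3a disagreed in size, with means of -0.10 (adjusted p = 0.556) and -0.53 (adjusted p = 0.00941) when each was fitted by itself. Zbtb16, a zinc finger repressor, had -0.10, -0.33, -0.54 and -0.90 (adjusted p = 0.0182), and its call was lost without replicate 3 (0.0611) or 4 (0.0741). The clock gene Per1 had -0.21, 0.05, -0.49 and -0.45 (adjusted p = 0.0332), the only one of the 6 with an array above 0, and its call was lost without replicate 1 (0.0625), 3 (0.144) or 4 (0.116). Map3k6, a stress kinase, had -0.16, -0.26, -0.30 and -0.23 (adjusted p = 0.0151), lost without replicate 3 (0.0622). At 6 h Hif3a was the one of these 6 that was called below vehicle, with a mean of -0.30 (adjusted p = 0.0224).

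**Figure D2:**
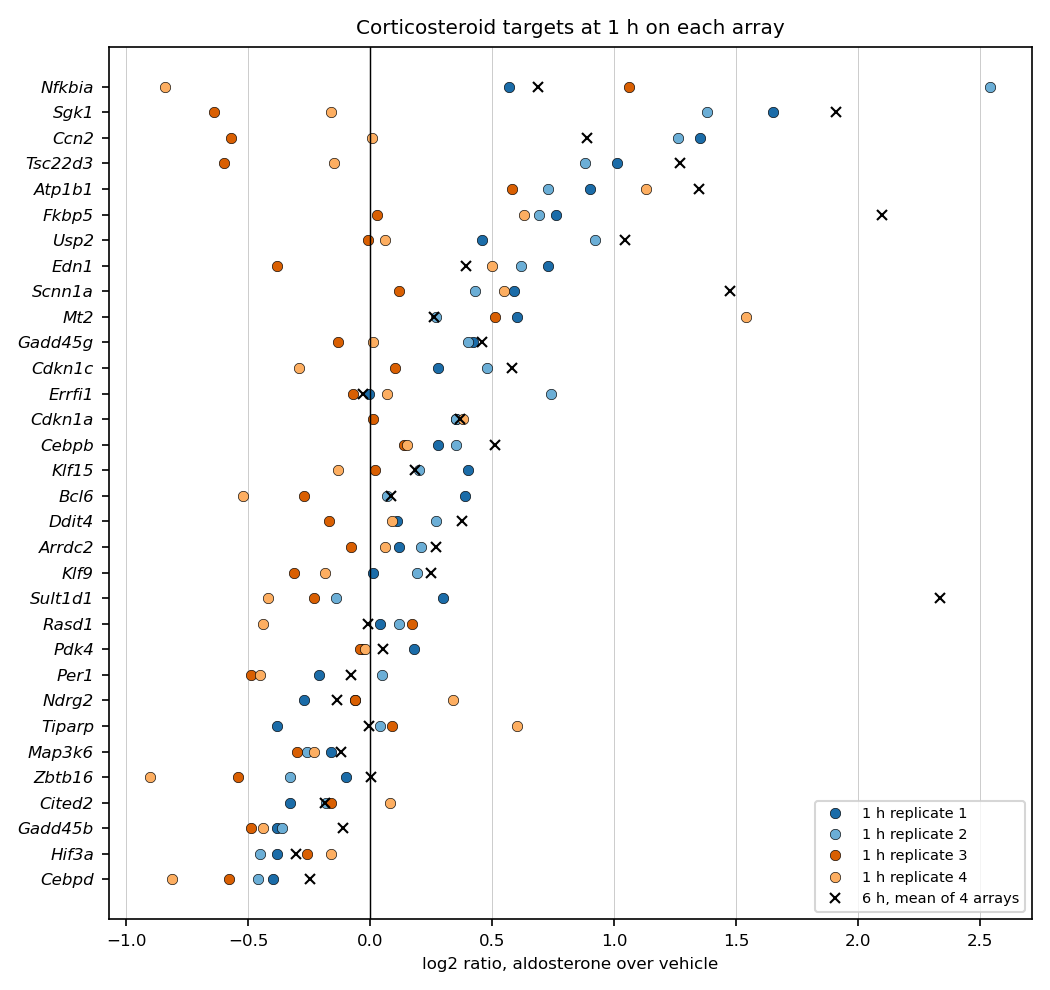
Log2 ratio of aldosterone over vehicle (x axis) for the 32 measured corticosteroid targets (y axis, ordered by the mean of replicates 1 and 2), with 1 filled circle for each of the 4 arrays at 1 h and a cross for the mean at 6 h. For Sgk1, Ccn2 and Tsc22d3 the circles of replicates 1 and 2 lie between 0.88 and 1.65, while those of replicates 3 and 4 lie between -0.64 and 0.01.

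Across all features the first 2 arrays and the last 2 agreed in direction for most. The mean of replicates 1 and 2 correlated with the mean of replicates 3 and 4 at 0.741 by Pearson's and 0.758 by Spearman's coefficient over the 15078 features, as a description, since features on one array share dyes, RNA and scaling. The sign was the same for 78.9%. All 4 arrays carry the dyes the same way, so agreement between them cannot tell a dye preference apart from a response. Between single arrays r ran from 0.610 to 0.724, with replicates 3 and 4 as the closest pair. The order of the accessions is no labelled batch, and whether RNA preparation, labelling or hybridization separated the pairs was not tested.

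Starting from replicates 1 and 2, a larger share of features kept its side below vehicle than above it. At least 1.5-fold above vehicle on both replicates 1 and 2 were 99 features (0.657%). Of these, 73 (73.7%) were above 0 on both replicates 3 and 4, against 39.4% of all features, 22 (22.2%) reached 1.5-fold there, against 1.25%, and 12 were below 0 on both. At least 1.5-fold below vehicle on replicates 1 and 2 were 279 features (1.85%), and 272 of them (97.5%) were below 0 on both other arrays, against 38.8% of all features. In this group 176 (63.1%) were 1.5-fold below again, against 4.39% of all features, and none was above 0 on both.

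Read the other way, replicates 3 and 4 had 189 features at least 1.5-fold above vehicle (1.25%). Of these, 170 (89.9%) were above 0 on both replicates 1 and 2, against 38.0% of all features. On those arrays 22 (11.6%) were 1.5-fold above, against 0.657% of all features. Below vehicle replicates 3 and 4 had 662 (4.39%). Of these, 615 (92.9%) were below 0 on both replicates 1 and 2, against 38.7% of all features, and 176 (26.6%) were 1.5-fold below, against 1.85%. One feature of the 189 and 6 of the 662 lay on the opposite side on both replicates 1 and 2. These pairs of arrays contain replicate 4, whose ratios spread most.

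The split seen for Sgk1 was shared by few features. In all, 12 features were at least 1.5-fold above vehicle on both replicates 1 and 2 and below it on both replicates 3 and 4, and no feature was 1.5-fold below on the first pair and above 0 on the second. Here the 1.5-fold threshold lay on the first pair only. Set on replicates 3 and 4 instead, it gave 6 features 1.5-fold below there and above 0 on both replicates 1 and 2, and 1 the other way. Among those 6, Rtl6 had a gap between the pairs of 2.05, against 1.92 for Sgk1. The 12 features were picked by their contrast, so their values are a description. Ptpn11, which encodes the phosphatase SHP2, had the widest gap, with 2.85 and 2.92 against -0.12 and -0.01, followed among named genes by Sntb1, a syntrophin of the membrane skeleton, with 1.01 and 0.90 against -2.01 and -0.46. Sgk1 came next. Kcnmb1, a subunit of the calcium-activated potassium channel, had 1.25 and 1.14 against -0.91 and -0.02, and Npm1, a nucleolar chaperone, had 1.24 and 1.26 against -0.13 and -0.69. Trib1, a pseudokinase, split likewise with 0.73 and 1.17 against -0.50 and -0.07, as did Tsc22d3. The other named genes among the 12, chosen for mention after their values were seen, were Col4a3, Bnc1 and Pcdhgb5. At 6 h Sgk1 and Tsc22d3 were called above vehicle, while Ptpn11 had -0.05, -0.20, -0.09 and 1.42 and Sntb1 had 0.10, 0.87, -0.73 and -0.62, with both signs at that time too.

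**Figure D3:**
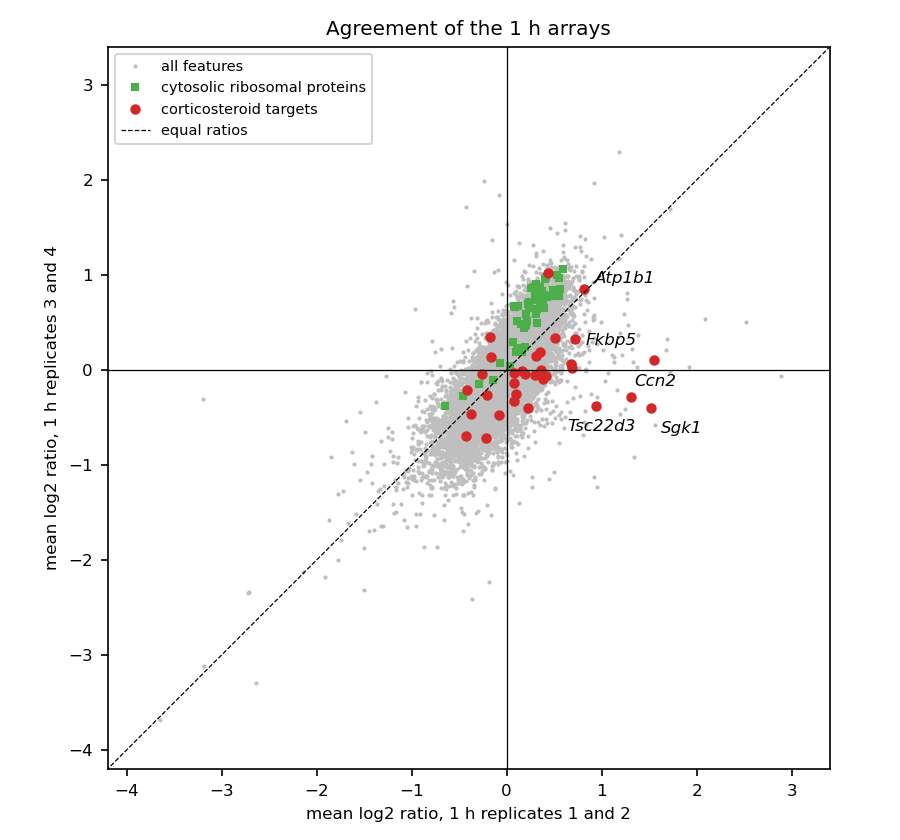
Mean log2 ratio of the 1 h replicates 3 and 4 (y axis) against that of replicates 1 and 2 (x axis) for all 15078 features (grey), with cytosolic ribosomal protein genes as green squares, corticosteroid targets as red circles and a dashed line of equal ratios. Sgk1, Ccn2 and Tsc22d3 lie at the lower right, below 0 on the y axis, while the ribosomal genes lie above the dashed line.

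Immediate early genes, which answer many stimuli within minutes to hours, mostly did not pass at 1 h. Of 47 listed 43 were measured. The calls were 6 above vehicle (14%) and 3 below it (6.98%), with 34 not passing, and these shares lie under the 20% and 21% of all features. The classic members were near vehicle. Fos had -0.11, 0.06, 0.15 and -0.53 (adjusted p = 0.431), Egr1 had -0.11, 0.10, 0.28 and 0.21 (adjusted p = 0.211), and Jun had 0.01, 0.02, 0.08 and 0.26 (adjusted p = 0.294). Apart from replicate 4 of Fos, no array of these transcription factor genes lay farther from vehicle than 0.28.

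The clearest immediate early gene above vehicle was Mcl1, a survival factor of the BCL2 family, with 0.92, 0.75, 0.52 and 1.89 and a mean of 1.02 ± 0.18 or 2.03-fold (adjusted p = 0.00331). Jund, an AP-1 subunit, had 0.52, 0.44, 0.62 and 1.27 (mean 0.71 ± 0.12, adjusted p = 0.00279). Both genes were above vehicle on all arrays and highest on replicate 4. Fosl1, another AP-1 subunit, had 0.30, 1.50, 0.62 and -0.02 (adjusted p = 0.0394), a call that ended without replicate 1 (0.0514), 2 (0.129) or 3 (0.0977), and its mean was 0.30 without replicate 2. Id2, an inhibitor of helix-loop-helix factors, had 0.31, 0.17, 0.09 and 1.24 (adjusted p = 0.0484), lost without replicate 1 (0.0775), 2 (0.0512) or 4 (0.102), with a mean of 0.19 without replicate 4. The other calls above vehicle were weak: Ccn1, a matrix protein, had a mean of 0.33 (adjusted p = 0.0343, lost without replicate 3 or 4) and Klf4, a zinc finger factor, one of 0.20 (adjusted p = 0.037, lost whichever array was left out).

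Below vehicle were Spry4, Hes1 and Egr2. Spry4, an inhibitor of receptor tyrosine kinase signalling, was the one immediate early gene among the early movers, with -0.66, -0.63, -1.0 and -1.63 (mean -0.98 ± 0.16, adjusted p = 0.00259). Hes1, a Notch target repressor, had -0.50, -0.46, -0.42 and -0.87 (adjusted p = 0.00297). The third was Egr2, at -0.10, -0.30, -0.26 and -0.10 (adjusted p = 0.0417), which did not pass without replicate 1, 2 or 3. Phosphatase genes of the mitogen kinases were also above vehicle on the first pair of arrays and below it on the second, without a call. Dusp6 had 0.91 and 0.37 on replicates 1 and 2 against -0.14 and -0.53 on replicates 3 and 4, and Dusp1 had 0.29 and 0.63 against -0.59 and -0.31. Their adjusted p-values were 0.541 and 0.987.

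Among genes of the receptor machinery the calls were all above vehicle. Of 20 measured steroid receptor, chaperone and coregulator genes 8 were above (40%, against 20% of all features) and none below (against 21%), and the median ratio was 0.18. Smarca4, the motor of a chromatin remodelling complex, had 0.68, 0.52, 0.66 and 0.38 (mean 0.56 ± 0.08, adjusted p = 0.00174), beside Fkbp1a and Fkbp5 described above. The difference from other genes was not tested as a list. Of 25 sodium transport genes 8 were above vehicle (32%, against the same 20%) and 4 below (16%, near the 21%). Besides Atp1b1 and Scnn1a these included Nedd4, a ubiquitin ligase related to the one that removes the sodium channel, with 0.44, 0.35, 0.50 and 0.98 (mean 0.57 ± 0.11, adjusted p = 0.00453), and the scaffold gene Slc9a3r1 with 0.30, 0.21, 0.39 and 0.64 (adjusted p = 0.0058).

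The shares of growth factor and NF-kB genes above vehicle lay near the 20% of all features, and their shares below were under the 21% of all features. Of 30 growth factor and PI3 kinase genes 7 were above (23.3%) and 2 below (6.67%). Ereg, the growth factor epiregulin, was an early mover with -1.18, -1.31, -0.75 and -0.67 (mean -0.98 ± 0.14, adjusted p = 0.00157), and Akt1, the kinase downstream of PI3 kinase, had 0.26, 0.34, 0.53 and 0.82 (adjusted p = 0.00427). Of 28 NF-kB and inflammatory genes 7 were above (25%) and 2 below (7.14%), led by Ikbkg, the scaffold of the IKK complex, with 0.38, 0.61, 0.71 and 0.57 (mean 0.57 ± 0.08, adjusted p = 0.00174). Nfkbia, the inhibitor that corticosteroids are known to raise, had 0.57, 2.54, 1.06 and -0.84 and did not pass (adjusted p = 0.137), the widest disagreement between arrays in the corticosteroid list. Of 16 clock genes 1 was above (6.25%) and 3 below (18.8%). The 1 above was Bhlhe41, a clock repressor, with 0.19, 0.37, 0.32 and 0.45 (adjusted p = 0.0122). Among the 3 below, besides Per1, was Nr1d1 with -0.11, -0.25, -0.34 and -0.87 (adjusted p = 0.0204), a call lost without replicate 3 (0.0508).

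Housekeeping and structural lists held more calls above vehicle than below at 1 h, and replicate 4 had the highest list median for the ribosomal, oxidative phosphorylation, RNA processing, junction and cell cycle genes. Of 55 cytosolic ribosomal protein genes 37 were above (67.3%, against 20% of all features) and 2 below (3.64%, against 21%), with list medians of 0.35, 0.20, 0.22 and 1.14 on replicates 1 to 4. Without replicate 4 the list median was 0.27 in place of 0.48. No ribosomal gene of the 55 had a higher mean in replicates 1 and 2 than in 3 and 4, against 46.9% of all features. The second pair contains replicate 4, and the list median on replicate 3 (0.22) lay between those on replicates 2 (0.20) and 1 (0.35). Rplp0, a stalk protein of the large subunit, had 0.68, 0.44, 0.57 and 1.14 (mean 0.71 ± 0.10, adjusted p = 0.00166). Oxidative phosphorylation genes had 26 of 64 above (40.6%) and 4 below (6.25%), and Ndufa1, a subunit of respiratory complex I, had 0.40, 0.50, 0.36 and 0.52 (mean 0.45 ± 0.06, adjusted p = 0.00134). Unlike Rplp0, Ndufa1 was about as high on replicate 2 as on replicate 4. The transcription and RNA processing list had 39 of 109 above (35.8%) and 17 below (15.6%), nearer to the shares of all features. Its member with the smallest p, Gtf2a1l, lay below vehicle with -0.71, -0.64, -0.99 and -0.98 (adjusted p = 0.000914). Gtf2a1l was also the 1 early mover of this list. Hnrnpu, an RNA-binding nuclear scaffold protein, had 0.43, 0.55, 0.50 and 0.92 (adjusted p = 0.00142).

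Epithelial junction and cytoskeleton genes were above vehicle in 17 of 28 (60.7%, against 20% of all features) and below in 1 (3.57%, against 21%), with array medians of 0.21, 0.25, 0.17 and 0.48. Flna, an actin cross-linker, had 0.39, 0.48, 0.41 and 0.82 (adjusted p = 0.00226), and Epcam, an epithelial adhesion molecule, had 0.39, 0.41, 0.42 and 0.90 (adjusted p = 0.0033). In the cell cycle list 18 of 31 were above (58.1%) and 3 below (9.68%), with opposite cyclins: Ccna2, the S phase cyclin, had 0.78, 0.61, 0.54 and 1.2 (mean 0.78 ± 0.11, adjusted p = 0.00135), and Ccnd2, a G1 cyclin, had -0.41, -0.60, -0.75 and -0.89 (mean -0.66 ± 0.09, adjusted p = 0.00134). Both calls held without each array. The chaperone and protein-folding stress list, with 23 genes, had 9 above (39.1%) and 2 below (8.7%), with Hspa5, the main chaperone of the endoplasmic reticulum, at 0.37, 0.68, 0.65 and 1.01 (adjusted p = 0.00174). Vesicle traffic genes had 10 of 31 above (32.3%) and 7 below (22.6%, near the 21% of all features), among them Vps35, a retromer subunit, at a mean of 0.57 (adjusted p = 0.001) and the exocytosis GTPase Rab27b at -0.67 (adjusted p = 0.000914).

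Cell type lists were read to see which markers moved, since levels are unknown. Of 18 principal cell markers 7 were above (38.9%, against 20% of all features) and 3 below (16.7%, near the 21% of all features). Pax8, a renal epithelial transcription factor, had 0.88, 0.51, 0.65 and 1.04 (mean 0.77 ± 0.09, adjusted p = 0.001), while Elf5, a principal cell transcription factor, was an early mover below vehicle with -0.77, -1.35, -0.83 and -1.53 (mean -1.12 ± 0.18, adjusted p = 0.00226). Of 10 intercalated cell markers 5 were below (50%) and 1 above (10%), among them Foxi1, the factor that specifies these cells, with -0.38, -0.49, -0.19 and -0.46 (adjusted p = 0.0108). Other nephron segments had 2 of 19 above and 2 below (10.5% each), and stromal, endothelial and blood markers 2 of 19 above (10.5%) and 5 below (26.3%, near the 21%). The per-array medians of the principal list ran from 0.09 to 0.14, and those of the intercalated list from -0.44 to -0.08, with the lowest on replicate 4. Their part in the other results was not tested.

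Genes listed for other tissues were more often below vehicle than above it. Among 29 genes of liver, pancreas, cartilage, plasma cells or parathyroid 15 were below (51.7%, against 21% of all features), 3 above (10.3%, against 20%) and the median was -0.33. Among 109 genes of the sensory receptor, defensin, hair keratin-associated, casein and prolactin families 32 were below (29.4%) and 10 above (9.17%), set against the same shares. Krtap19-5, a hair keratin-associated gene, had -1.18, -1.91, -1.07 and -1.25 (adjusted p = 0.000801), and Defb7, a defensin, had -0.74, -0.85, -1.14 and -1.35 (adjusted p = 0.00112). The array medians of this family list were -0.11, -0.15, -0.15 and -0.14, so all 4 arrays at 1 h carried the shift alike. The shift was not particular to 1 h. At 6 h 31 of these 109 genes were below vehicle and 1 above, against 10.7% and 7.13% of all features. Of the 29 genes of liver, pancreas, cartilage, plasma cells or parathyroid, 6 were below vehicle at 6 h and 1 above.

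**Figure D4:**
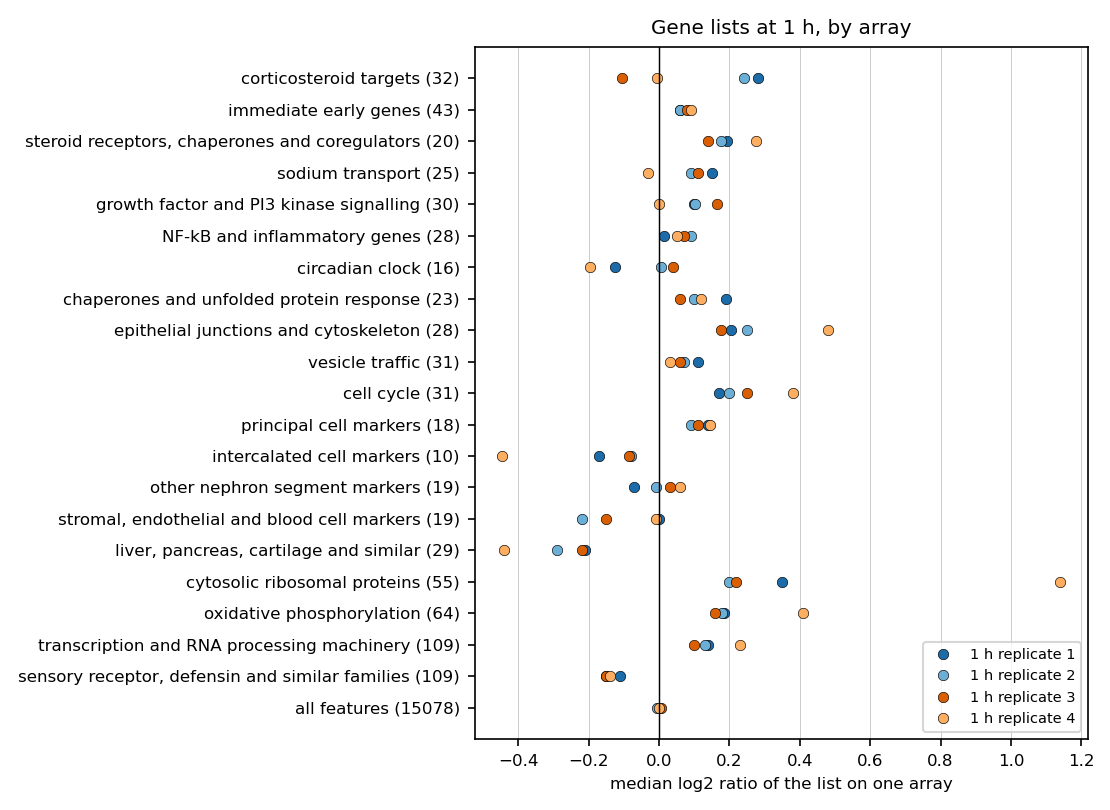
Median log2 ratio (x axis) of each gene list and of all features (y axis, number of measured features in brackets) on each of the 4 arrays at 1 h. The ribosomal list reaches 1.14 on replicate 4 against 0.20 to 0.35 on the others, and the corticosteroid list is above 0 on replicates 1 and 2 and below it on replicates 3 and 4.

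The ratios at 1 h were also set against the 4 arrays at 6 h. Most early movers pointed the same way there and lay closer to vehicle. Of the 21 above vehicle, 16 had the same sign on all 4 arrays at 6 h, 13 were called above vehicle then, against 7.13% of all features, and none was called below. The median mean ratio was 0.86 at 1 h and 0.48 at 6 h, and 20 of the 21 were nearer to 0 at 6 h. Of the 175 below vehicle, 148 had the same sign on all 4 arrays at 6 h, 125 were called below vehicle, against 10.7% of all features, and none above. Their median was -0.965 at 1 h and -0.56 at 6 h, and 144 were nearer to 0 at 6 h. Movers were chosen for their size at 1 h, so a smaller size in other arrays is no test of a difference. Both times carry the same dyes, so a dye preference is in both. The calls at 1 h and 6 h also share 1 estimate of spread per feature, so they are not independent. For the counts with the same sign on all 4 arrays no share of all features is given here. The arrays of the times did not overlap for 5 of the 21 and 56 of the 175, against 9.78% of all features, and none of the 196 passed the test of 1 h minus 6 h.

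Individual movers differed in how much was left at 6 h. Zxdc had 0.20, 0.06, -0.18 and 0.48 at 6 h, against 0.67 to 0.94 at 1 h. Tom1l1 had -1.55, -1.02, -1.40 and -3.19 at 6 h, with replicate 4 of that time overlapping the 1 h arrays. S100pbp was the one mover above vehicle among those named with a larger mean at 6 h, 1.17 ± 0.17, against 0.84 ± 0.17 at 1 h. Krtap19-5 and Elf5 were also as far from vehicle at 6 h, with means of -1.41 and -1.40. None of these differences passed (adjusted p from 0.186 for Zxdc to 0.891 for Krtap19-5).

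**Figure D5:**
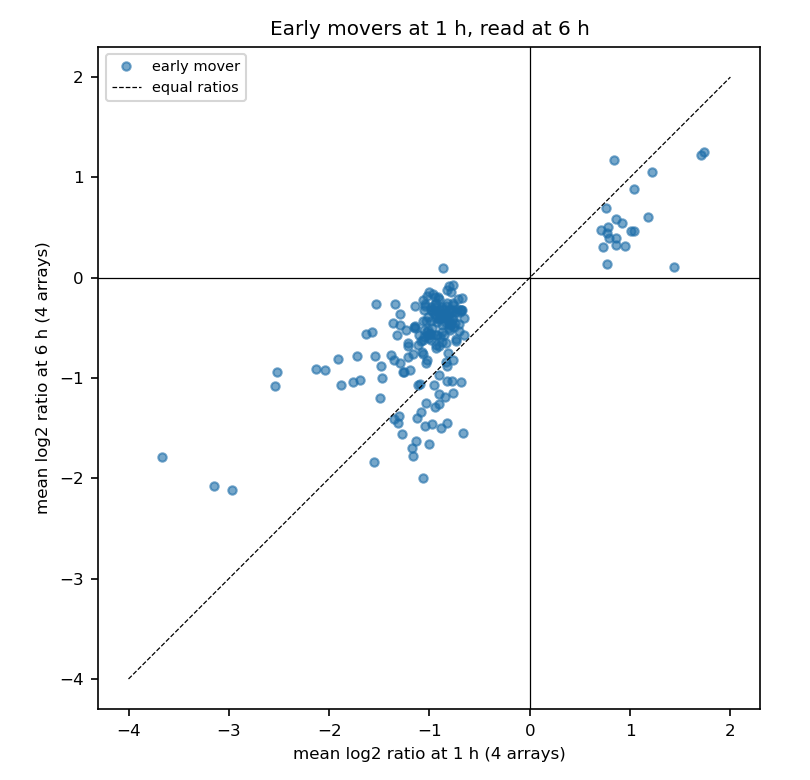
Mean log2 ratio at 6 h (y axis, 4 arrays) against the mean at 1 h (x axis, 4 arrays) for the 196 early movers, with a dashed line of equal ratios. Most points lie between the dashed line and 0 on the y axis, on the side of vehicle they had at 1 h.

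A difference between 1 h and 6 h passed for 4 of 15078 features (0.0265%). Fkbp5 was lower at 1 h, with 0.76, 0.69, 0.03 and 0.63, against 2.13, 2.08, 2.07 and 2.11 at 6 h (difference -1.57, adjusted p = 0.0122). Sult1d1, which encodes a sulfotransferase, did not pass at 1 h, with 0.30, -0.14, -0.23 and -0.42, against 2.83, 2.47, 2.05 and 1.99 at 6 h (difference -2.46, adjusted p = 0.00725). Neither gene overlapped between the times. Ccr7, a chemokine receptor, had -0.56, -0.41, -0.54 and -0.91 at 1 h, against 0.59, 0.93, 0.53 and 0.39 at 6 h (adjusted p = 0.0426). Cxcl5, a neutrophil chemokine, had 0.27, 0.62, 0.29 and 0.65 at 1 h, against -1.12, -0.88, -0.49 and -0.71 at 6 h (adjusted p = 0.0426). These chemokine system genes changed sides between the times on every array. The calls of Ccr7 and Cxcl5 were lost whichever 1 h array was left out (adjusted p from 0.0844 to 0.150), and those of Fkbp5 (0.0667) and Sult1d1 (0.0575) without replicate 4. The sizes changed little, and the difference of Fkbp5 then ranged from -1.65 to -1.40. The call of Fkbp5 also ended under quantile normalization (0.0606) and that of Cxcl5 with arrays scaled to equal median absolute deviation (0.0503). A dye preference that is the same on all arrays cancels in this difference, unlike in the ratios at 1 h.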

How the data were processed

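The values deposited by the authors are log2 ratios, Cy5 (aldosterone) divided by Cy3 (vehicle), from a GenePix 4.0 scanner and normalized with R and Bioconductor, per the labels. Array quality was judged on intensity plots, signal to noise and median intensity, and genes were chosen with one-class SAM, per the labels. How background, normalization and repeat spots were handled is not stated in the labels, so scale and centring were taken as deposited. Array medians lay near 0, and no 2 arrays shared more than 2.06% of equal values. Of 16361 probes, 13768 had 1 symbol in the platform annotation, 13 several and 2580 none listed. RefSeq's gene table for GRCm38.p6 held 13668 of them by entrez identifier and changed 0 symbols. Probes with values on all 8 arrays (16083) were averaged per gene, which joined probes for 938 genes. The 202 probes with values at 1 h only and the 76 at 6 h only were not tested.

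limma 3.58.1 in R 4.3.3 was fitted to all 8 arrays with a mean for each time (6 residual and 3.73 prior degrees of freedom). Tests were two-sided, adjusted by the Benjamini-Hochberg method over 15078 features, with a threshold of 0.05. No list was tested as a set. Named genes were the 12 called on each side of vehicle whose array nearest to 0 lay farthest out, all measured corticosteroid targets and immediate early genes, the 3 members of each other list with the smallest p at 1 h, the 5 widest splits between the array pairs in each direction, and genes passing 1 h minus 6 h without overlap. Members and lists were chosen with earlier results of these data known. On simulated data for 15078 features the 1 h test recovered 65.7% of features changed by 0.5 on the log2 scale, 92.5% of those changed by 1 and 100% of those changed by 2, with 4.97% of calls false. For 1 h minus 6 h the shares were 28.4%, 77.6% and 100%, with 5.52% false. The simulation held no dye preference. It changed few features and gave each feature the same spread on all arrays, while in the data 41% were called and replicate 4 spread most. Its shares therefore need not hold for the calls made here. Alternatives were other scalings and centrings between arrays, array weights, robust moderation, single probes, the 4 arrays alone, SAM and leaving out each 1 h array. Promoter sequences came from RefSeq.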

Additional observations from a re-analysis of the deposited data

Results flagged for a closer look

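Among the values given by array, 1 array of the 4 at 1 h lay far from the other 3 for 9 genes and 2 lists. Chance marks about 1 in 20 groups in this way, or 8.7 of the 174 looked at (154 genes and 20 lists), and 11 were found. Replicate 4 was the distant array for 4833417C18Rik (3.75), Capns1 (1.44), Pfdn5 (1.79), Cox8a, a subunit of respiratory complex IV (0.95), Epcam (0.90), Rps24, a ribosomal protein gene (1.18), and Mucl2 (-3.04). It was also the distant array for the medians of the cytosolic ribosomal list (1.14) and the oxidative phosphorylation list (0.41). Replicate 3 was distant for Cdkn1a (0.01), and replicate 1 for Pdk4, a kinase of pyruvate metabolism (0.18).

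The ratios at 1 h and at 6 h differed by limma's test of the difference for Sult1d1 (1 h minus 6 h, -2.46, adjusted p = 0.00725), Fkbp5 (-1.57, adjusted p = 0.0122), Ccr7 (-1.22, adjusted p = 0.0426) and Cxcl5 (1.26, adjusted p = 0.0426).

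Probes with values at 1 h only entered no test, and why they lack values at 6 h is unknown. Among the tested features 1.16% were early movers below vehicle and 0.139% above. Of the 202 probes with values at 1 h only, 9 were at least 1.5-fold below vehicle on every 1 h array. Another 1, unnamed, was above, with a mean of 1.96. The named ones below vehicle were Pcdhb18, a protocadherin (-1.87), the hair keratin-associated genes Krtap17-1 (-1.31) and Krtap4-16 (-1.19), Tex21 (-1.15), the matrix protease Mmp7 (-1.13), 4930447C04Rik (-0.98) and the agouti signalling gene a (-0.925).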

How the results depend on the processing

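The count of features differing from vehicle at 1 h ranged from 4327 to 6589 over the alternatives, within 1.5 times of the reported 6180. Early movers numbered 209 to 332 with an array left out, 27 to 58 above vehicle and 182 to 284 below, since fewer arrays must then pass the fold threshold. Quantile normalization gave 39 above vehicle, and scaling to equal median absolute deviation gave 138 in all, 19 above and 119 below. Features passing 1 h minus 6 h numbered 9 with arrays scaled to equal median absolute deviation, 11 with quantile normalization, 8 with array weights and 0 to 3 with an array left out. The 0 was limma's without replicate 4, with 1930 features at an unadjusted p under 0.05. The calls were not the same genes throughout, as Fkbp5 was lost under quantile normalization and Cxcl5 under equal median absolute deviation. The share of features high on replicates 1 and 2 that were above 0 on both other arrays was 27.3% with a 2-fold threshold (11 features) and 85.5% with a 1.2-fold one, and the share below was 92.8% with 1.2-fold. The cause was not tested. List medians moved beyond the spread between arrays for immediate early genes (0.0743 under equal deviation, 0.0745 under quantile normalization, 0.0667 to 0.0967 with an array left out), NF-kB genes (0.0595 with array weights, 0.0567 to 0.16 with an array left out), principal cell markers (0.0812 and 0.0827 under the same scalings, 0.0883 to 0.168) and the sensory receptor and related families (-0.167 to -0.13). With an array left out, medians also moved by over 1.5 times, within that spread, for corticosteroid targets (0.0367 to 0.158, reported 0.105), growth factor genes (0.055 to 0.111, reported 0.11), chaperones (0.06 to 0.137, reported 0.11), stromal markers (-0.19 to -0.10, reported -0.173), ribosomal genes (0.267 to 0.57, reported 0.483) and oxidative phosphorylation genes (0.14 to 0.233, reported 0.215). The medians of clock genes (-0.0663 to -0.00167) and other nephron segments (-0.06 to 0.0233) stayed near 0. No result with a test reversed. Of 154 named genes 93 passed at 1 h, and 80 of these kept the call without each array in turn. Signal over background, which would limit the dim probes, is unknown. No paired analysis was possible because the labels of the 1 h arrays carry no replicate numbers.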
